A study of Mus musculus with 8 samples.

Results

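Chemokines are small secreted proteins that guide the movement of white blood cells, and their receptors are G protein-coupled receptors on the cells that follow them. The genes were taken as every probe set with a single gene symbol in the array annotation that names a CC, CXC, CX3C or XC chemokine, a receptor of one of these classes, or an atypical (scavenging) receptor. This gave 52 genes, 31 ligands and 21 receptors, of 14860 genes with a probe set of their own among 16755 probe sets. Each of the 52 had 1 such probe set. Ligands are named by the spacing of their first cysteines, and most bind several receptors. In skeletal muscle they are known as signals that bring neutrophils, then monocytes and later lymphocytes into damaged tissue, and fibres, endothelium, fibroblasts and macrophages can all make them.

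RNA was extracted from tibialis anterior, the fast-twitch muscle along the shin, in male mice aged 8 weeks whose skeletal muscle lacks the stress transcription factor ATF4. On 4 arrays the right muscle had been transfected with pCMV-FLAG-Gadd45a, a plasmid that makes a tagged form of the nuclear stress protein Gadd45a. On the other 4 arrays the left muscle had been transfected with the empty plasmid pcDNA3. Muscles were harvested 7 days later, and both groups carry the ATF4 deletion. The sources used here do not name the driver of that deletion, and no muscle with ATF4 or without plasmid was analysed here. Plasmid and side of the body cannot be told apart. Since the control plasmid is empty, Gadd45a and the production of a tagged protein as such cannot be told apart either. Nothing in the labels ties the arrays of a group to different animals. The p-values therefore reflect spread among these 8 arrays, part of which may be technical, and the number of arrays limits the precision. The question is which of these genes differ when Gadd45a is added to muscle that has lost ATF4.

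All values are log2 intensities, so 1 unit is a doubling of signal, and a change is the mean with Gadd45a plasmid minus the mean with control plasmid. Gadd45a itself averaged 10.33 ± 0.12 with Gadd45a plasmid and 7.76 ± 0.08 with control plasmid (SD, n = 4 each), a change of 2.57 on a probe set that does not separate plasmid RNA from the mouse's own. The Atf4 probe set averaged 7.49 ± 0.10 with Gadd45a plasmid and 6.95 ± 0.09 with control plasmid (SD, n = 4 each), which does not check the deletion, since both groups carry it. Array medians ran from 5.85 to 5.87 with Gadd45a plasmid and from 5.86 to 5.92 with control plasmid. The fibre markers measured, 7 of 10 listed, averaged 11.44 to 11.51 per Gadd45a array and 11.70 to 11.84 per control array, near the top of a scale that ends at 13.06, and 3 of them fell (Mybpc2 -0.70, Ckm -0.51 and Atp2a1 -0.48). Levels are not compared between genes, because each probe set has its own brightness. The file gives no detection call. Of the 52 genes, 28 had a mean above the 95th percentile of 719 olfactory receptor probe sets (5.80), genes used mainly in the nose. Of the 11 genes that changed, 9 were among these 28, but Cx3cl1 only through its Gadd45a arrays. Where the mean of a group is below that level, the size of a change is uncertain.

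Of the 52 genes, 11 passed an adjusted p of 0.05 and are called changed (limma, Benjamini-Hochberg over all probe sets), 4 higher and 7 lower with Gadd45a plasmid. This is 21.2% of the genes, and 21.1% of all probe sets passed, 10.8% higher and 10.3% lower, so the number of changes does not set these genes apart. Their median change was -0.03, beside -0.06 over all probe sets. The groups did not overlap in 9 of the 52 (17.3%), against 26.9% of all probe sets. Among ligands 3 rose and 5 fell (25.8% of 31), and among receptors 1 rose and 2 fell (14.3% of 21). The genes that rose were the receptor Cxcr4 and the ligands Cxcl16, Ccl3 and Cx3cl1. Those that fell were the ligands Cxcl11, Cxcl9, Cxcl10, Ccl2 and Ccl11 and the receptors Cxcr2 and Ackr2. The fit was repeated 12 times, each without 1 array or 1 pair of arrays with the same number (1 to 4 in each group, as in the labels). The count was 6 without control 4, 7 without Gadd45a 1 and 5 without both arrays numbered 4. Of the receptors, 1 passed without control 3, control 4, Gadd45a 1 or both arrays numbered 4. Of the ligands, 5 passed without control 4, 5 without both arrays numbered 2 and 4 without those numbered 4. Cxcr4, Cxcl16, Cxcl11 and Ccl11 passed in all 12 repeats, and these 4 genes also passed an adjusted p of 0.01.

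**Figure D1:**
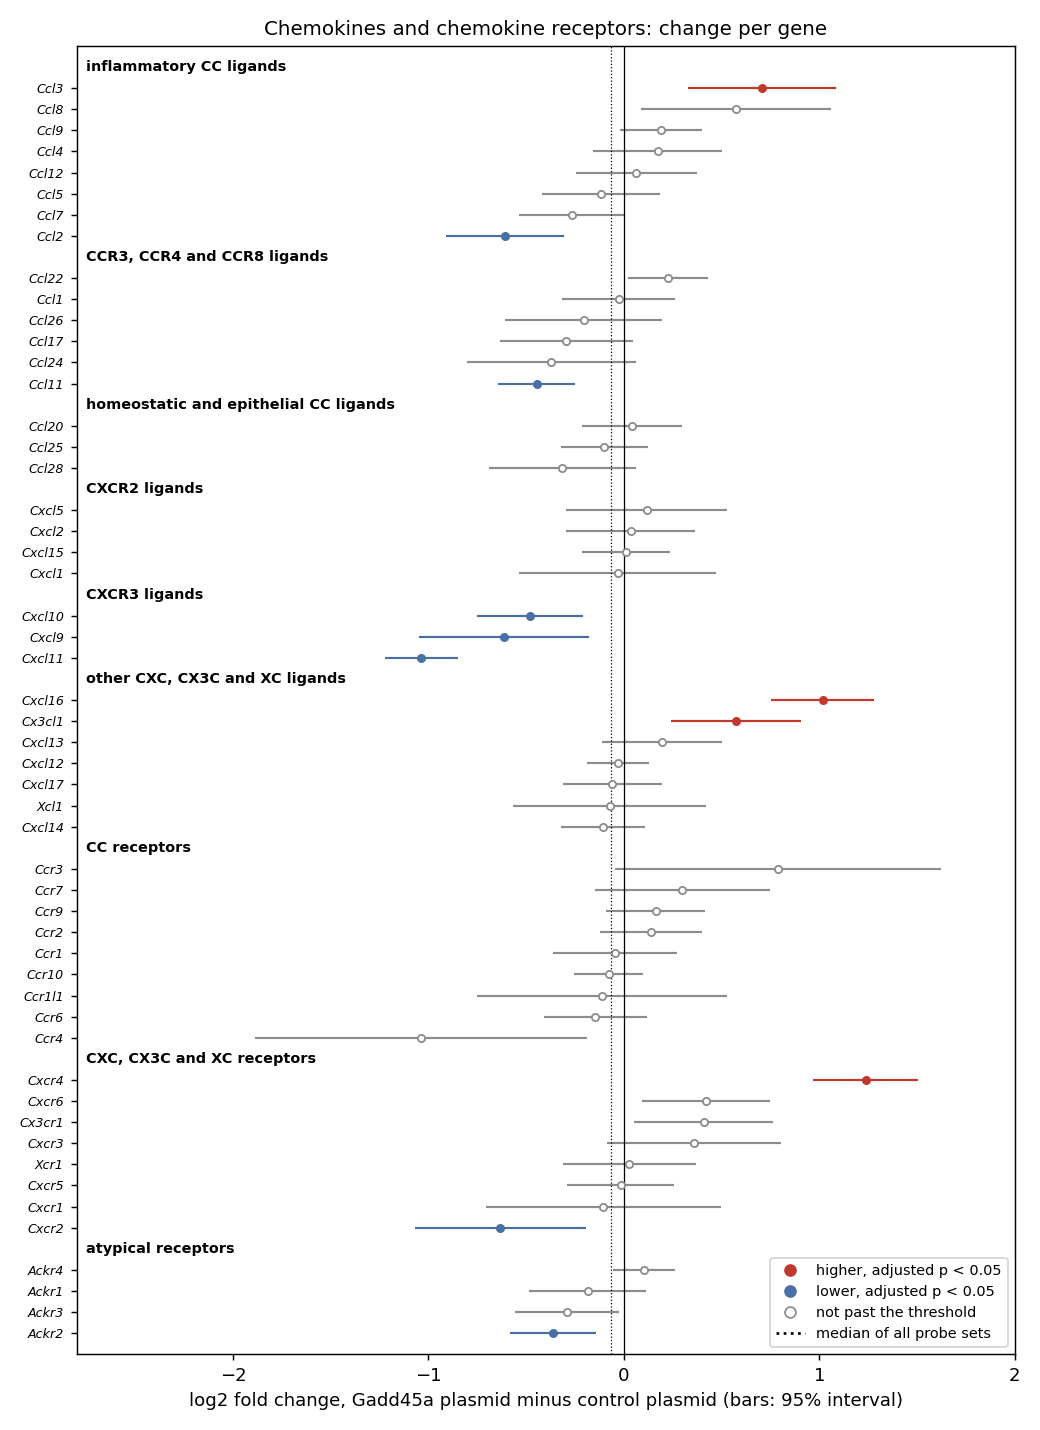
Change of each of the 52 genes in log2 units, Gadd45a plasmid minus control plasmid, with its 95% interval, by role. Filled points passed an adjusted p of 0.05 (red higher, blue lower), and the dotted line is the median of all probe sets (-0.06). The 3 CXCR3 ligands lie left of zero, and Cxcr4, Cxcl16 and Cxcl11 lie farthest from it among filled points.

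The ligands of the receptor CXCR3 fell together. Cxcl9, Cxcl10 and Cxcl11 are known as interferon-induced chemokines that attract activated T cells and natural killer cells, and their genes are neighbours on chromosome 5. Cxcl1 and Cxcl2, on the same chromosome, encode ligands of CXCR2 that attract neutrophils and are known targets of NF-kB. Cxcl9 and Cxcl10 fell here, while Cxcl1 and Cxcl2 did not pass the test and were below the olfactory level by their mean over all arrays. The bases just before the start of these genes are shown as a description, and their part in the changes was not tested. Sequences are RefSeq promoters of build GRCm38.p6, 250 bases up to the transcription start, 5′ to 3′ on the gene's strand. Capitals mark matches, on either strand, to 1 of 2 motifs. The interferon-stimulated response element core was searched as GAAA, any 2 bases and GAAA, and a form of the NF-kB site as GGG, any 2 bases and TTTCC. The windows are chr5:92328080-92328329 (minus strand) for Cxcl9, chr5:92348890-92349139 (minus strand) for Cxcl10, chr5:90890995-90891244 (plus strand) for Cxcl1 and chr5:90903649-90903898 (plus strand) for Cxcl2.
Cxcl9: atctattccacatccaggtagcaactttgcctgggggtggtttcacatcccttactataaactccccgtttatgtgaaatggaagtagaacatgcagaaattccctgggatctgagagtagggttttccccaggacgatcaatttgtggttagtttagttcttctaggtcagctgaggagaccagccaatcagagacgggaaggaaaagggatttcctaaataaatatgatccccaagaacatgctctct
Cxcl10: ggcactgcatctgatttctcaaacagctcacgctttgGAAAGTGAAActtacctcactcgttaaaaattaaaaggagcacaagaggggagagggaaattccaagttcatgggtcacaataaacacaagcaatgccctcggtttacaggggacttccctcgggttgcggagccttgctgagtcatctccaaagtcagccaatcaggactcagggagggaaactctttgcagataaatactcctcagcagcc
Cxcl1: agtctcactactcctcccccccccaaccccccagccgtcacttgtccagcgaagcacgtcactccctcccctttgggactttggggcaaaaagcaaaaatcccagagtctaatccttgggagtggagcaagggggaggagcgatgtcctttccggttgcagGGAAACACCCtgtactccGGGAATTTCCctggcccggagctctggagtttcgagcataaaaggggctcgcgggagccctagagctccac
Cxcl2: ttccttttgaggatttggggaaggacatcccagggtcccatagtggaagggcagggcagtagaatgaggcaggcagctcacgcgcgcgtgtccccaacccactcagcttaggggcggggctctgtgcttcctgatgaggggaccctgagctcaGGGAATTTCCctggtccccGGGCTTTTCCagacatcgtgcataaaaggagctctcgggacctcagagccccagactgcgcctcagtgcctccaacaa

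Cxcl10 held 1 match to the response element core, at positions -213 to -204 from the start, and Cxcl9 held no match to either motif in this window. Cxcl1 held matches to the NF-kB form at positions -89 to -80, on the opposite strand, and -71 to -62. Cxcl2 held them at positions -97 to -88 and -78 to -69. No match overlapped another. Of 32851 promoter windows of the same length, 2.98% held the response element core and 1.41% held the NF-kB form. Promoters were found for 38 of the 52 genes, in 40 windows, and those of Cxcl11, Cxcl16, Ccl2 and Ccl11 were not searched. The response element core was in those of Cxcl10 and Cxcl14, and the NF-kB form in those of Cxcl1, Cxcl2, Ccl9, Ccl20 and Ccr3. A match describes letters, not binding. Only these forms of the motifs were searched, so a window without a match may hold other forms, and the NF-kB form being unmatched in Cxcl10 does not show that such sites are absent.

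Cxcl11 read 6.01, 5.83, 5.97 and 6.07 on the Gadd45a arrays and 7.17, 6.93, 6.92 and 7.02 on the control arrays. The groups lay far apart relative to their spread, with every Gadd45a array below every control array. The change was -1.04 (SE 0.08, adjusted p = 9.35e-05), a 2.05-fold lower signal. It stayed between -1.07 and -0.98 in the 12 repeat fits. An exact two-sided permutation test over the 70 labellings of the arrays gave p = 0.0286, the smallest they can give. That value follows from the lack of overlap and adds nothing to it.

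Cxcl10 read 8.31, 8.79, 8.77 and 8.87 with Gadd45a plasmid and 9.03, 9.21, 9.18 and 9.24 with control plasmid, again without overlap. It fell by 0.48 (SE 0.12, adjusted p = 0.0212), and 5 of the 12 repeat fits missed the threshold, with adjusted p up to 0.0752. Cxcl9 read 9.15, 9.66, 9.97 and 10.05 with Gadd45a plasmid and 10.03, 10.52, 10.25 and 10.49 with control plasmid. Its groups overlapped, since Gadd45a 4 lay just above control 1. It changed by -0.61 (SE 0.19, adjusted p = 0.0499), a call that sits at the threshold and was lost in 8 of the 12 fits and under 3 of the scalings. All 3 ligands stayed lower under every alternative run.

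The fall of Cxcl11 exceeded that of Cxcl10 by 0.56 (exact permutation p = 0.0286, the smallest possible, adjusted p = 0.0743 over the 13 pairs of neighbours compared). Cxcl9 and Cxcl11 differed by 0.42 (exact p = 0.143, adjusted p = 0.186). Cxcr3, the receptor of all 3, read 6.05, 5.66, 5.62 and 6.46 with Gadd45a plasmid and 5.93, 5.26, 5.63 and 5.53 with control plasmid. The change of 0.36 did not pass (95% interval -0.09 to 0.80, adjusted p = 0.221). Ackr3, an atypical receptor that takes up Cxcl11 and Cxcl12, changed by -0.29 (adjusted p = 0.108).

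Interferon genes listed as inducers of these ligands did not pass in the fit without a block. With the sample number as a block in the limma fit, 1 of the 23 measured inducers passed as lower, and which one is not given here. Interferon beta (Ifnb1) changed by -0.48 (adjusted p = 0.113) on a probe set below the olfactory level. Interferon gamma (Ifng) changed by -0.29 (adjusted p = 0.217), and Irf1, a transcription factor it induces, by -0.33 (adjusted p = 0.142). Among T and NK cell markers, 2 of 13 rose and 2 fell (1 and 1 without both arrays numbered 2 or 4). The share called was 30.8%, beside 21.1% of all probe sets. The T cell receptor complex chains Cd3g (0.78, adjusted p = 0.00244) and Cd3e (0.46, adjusted p = 0.01) were higher, and the granzymes Gzmb (-0.96, adjusted p = 0.000278) and Gzma (-0.51, adjusted p = 0.0331) of cytotoxic cells were lower. The list averaged 6.31 to 6.60 on the Gadd45a arrays and 6.34 to 6.42 on the control arrays, and its part in the fall of the CXCR3 ligands was not tested. In RNA from whole muscle, fewer cells of a type and less RNA per cell cannot be told apart.

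**Figure D2:**
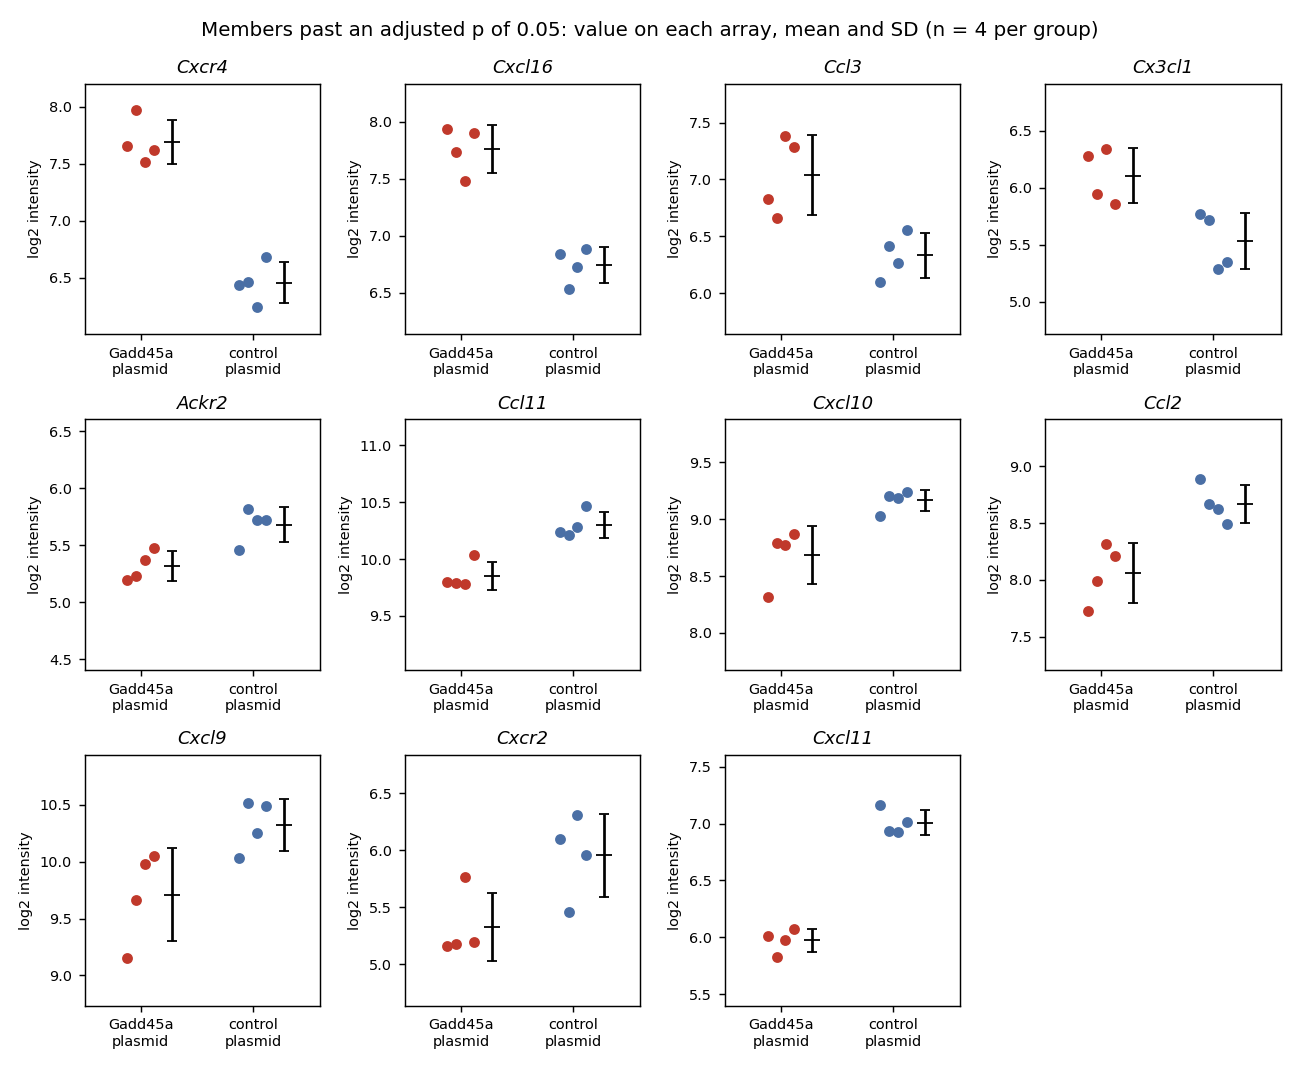
Log2 intensity on each array (points) with mean and SD (black) of the 11 genes past an adjusted p of 0.05, Gadd45a plasmid in red and control plasmid in blue, n = 4 each. Each vertical axis spans the same number of log2 units. Cxcr4, Cxcl16 and Cxcl11 show the widest gap between groups, while Cxcl9, Cxcr2 and Ackr2 overlap.

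Cxcl16 rose by about as much as Cxcl11 fell. It is a membrane-bound chemokine, also a scavenger receptor, that is shed by the protease Adam10 and attracts T cells bearing Cxcr6. Cxcl16 read 7.94, 7.73, 7.48 and 7.90 with Gadd45a plasmid and 6.84, 6.53, 6.72 and 6.88 with control plasmid. Every Gadd45a array lay above every control array. The rise, 2.02-fold, was 1.02 on the log2 scale (SE 0.12, adjusted p = 0.000428) and ran from 0.95 to 1.11 in the 12 fits. Its receptor Cxcr6 read 6.93, 6.39, 6.74 and 6.87 with Gadd45a plasmid and 6.47, 5.99, 6.27 and 6.51 with control plasmid, a change of 0.42 (SE 0.15, adjusted p = 0.0674). The groups overlapped, the 95% interval was 0.10 to 0.75, and it passed without Gadd45a 2 (0.54, adjusted p = 0.0277).

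Cx3cl1 (fractalkine), the other chemokine made on the cell surface, also rose. It read 6.28, 5.94, 6.34 and 5.86 with Gadd45a plasmid and 5.77, 5.71, 5.29 and 5.35 with control plasmid. The groups did not overlap, but the lowest Gadd45a array lay only slightly above the highest control array, and all 4 control arrays were below the olfactory level. The rise was 0.57 (SE 0.15, adjusted p = 0.0236), and it was lost in 7 of the 12 fits, with adjusted p up to 0.114. Its receptor Cx3cr1, a marker of patrolling monocytes and resident macrophages, read 7.68, 7.75, 7.78 and 8.04 with Gadd45a plasmid and 7.68, 7.00, 7.68 and 7.25 with control plasmid. The groups overlapped narrowly, and the change of 0.41 did not pass (adjusted p = 0.0959). Adam10, which sheds both ligands, rose by 0.46 (adjusted p = 0.00249).

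Cxcr4 had the largest change among the called genes of the 52. It is the receptor of Cxcl12, known for holding blood stem cells in marrow, and is present on many leukocytes and on muscle progenitors. Its signal was 7.66, 7.97, 7.52 and 7.62 on the Gadd45a arrays and 6.44, 6.46, 6.24 and 6.68 on the control arrays. No array of one group came near the other group. The rise, 2.36-fold, was 1.24 on the log2 scale (SE 0.12, adjusted p = 0.000178), with a range of 1.14 to 1.34 in the 12 fits. Cxcl12, its ligand, read 6.39, 6.63, 6.46 and 6.48 with Gadd45a plasmid and 6.52, 6.54, 6.49 and 6.55 with control plasmid. The change was -0.03, and its 95% interval of -0.19 to 0.13 is narrow against the rise of the receptor.

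The inflammatory CC ligands, known for attracting monocytes and T cells and many of them neighbours on chromosome 11, moved in both directions. Of 8 measured, 1 rose and 1 fell, with a median change of 0.12. The share called, 25%, is near the 21.1% of all probe sets, so this count does not set the class apart. Ccl2, the main ligand of the monocyte receptor Ccr2, read 7.73, 7.99, 8.32 and 8.21 with Gadd45a plasmid and 8.89, 8.67, 8.63 and 8.49 with control plasmid. The Gadd45a arrays all lay below the control arrays, and the widest gap was between the arrays numbered 1. The change was -0.61 (SE 0.14, adjusted p = 0.0123), and it missed the threshold without both arrays numbered 2 (adjusted p = 0.0705).

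Ccl3, a macrophage product that acts through Ccr1, went the other way. It read 6.83, 6.66, 7.39 and 7.29 with Gadd45a plasmid and 6.10, 6.42, 6.26 and 6.56 with control plasmid. The groups did not overlap, though Gadd45a 2 lay close to control 4. The rise was 0.71 (SE 0.17, adjusted p = 0.0168), lost without both arrays numbered 1, 3 or 4. Ccl4, its close relative beside it, changed by 0.17 (adjusted p = 0.416), and probes may not fully separate related ligands. Ccl8 read 6.64, 6.34, 6.66 and 7.15 with Gadd45a plasmid and 5.65, 5.94, 6.56 and 6.35 with control plasmid. That difference of 0.57 did not pass (SE 0.22, adjusted p = 0.0873), although it passed without control 3 (0.72, adjusted p = 0.046).

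Ccl7, Ccl12, Ccl5 and Ccl9 did not pass. Ccl7 and Ccl12 are further ligands of Ccr2, and Ccl5 (RANTES) attracts T cells and monocytes. Their changes were -0.27 for Ccl7 (-0.39, adjusted p = 0.0128, without Gadd45a 3), 0.06 for Ccl12, -0.12 for Ccl5 and 0.19 for Ccl9. The change of Ccl2 minus that of a neighbour was -0.34 for Ccl7, -0.67 for Ccl12 and -1.18 for Ccl8, each with an exact permutation p of 0.0286 and an adjusted p of 0.0743 over the 13 pairs. None of the 13 pairs, chosen after the values were seen, passed after adjustment. An exact p cannot go below 0.0286 here, so no pair could pass unless several more reached that value. The miss therefore does not show that the changes are equal. A probe set shared by Ccl6 and Ccl9, which is not one of the 52, was higher by 0.34 (adjusted p = 0.0348).

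Ccr2 marks the monocytes that enter injured muscle. It read 9.73, 9.44, 9.81 and 9.98 with Gadd45a plasmid and 9.76, 9.51, 9.61 and 9.52 with control plasmid. The groups overlapped, and the change of 0.14 had a 95% interval of -0.12 to 0.40 (adjusted p = 0.404). Macrophage markers moved more in the same arrays: 9 of 11 rose and 0 fell (81.8%, beside 21.1% of all probe sets), with a median of 0.58. Among them C1qa, a complement subunit, rose by 1.23, and Adgre1 (F4/80), a surface receptor of mature macrophages, by 1.05. Cd163, in the same list, went the other way (-0.25, adjusted p = 0.0649). It was lower on every Gadd45a array than on any control array but did not pass. The list averaged 7.97 to 8.23 on the Gadd45a arrays and 7.34 to 7.46 on the control arrays, without overlap. Most markers of macrophages thus moved with the rises of Cxcl16, Cxcr4, Ccl3 and Cx3cl1, and their part in these was not tested. Fibroblast markers rose too (5 of 7, 71.4%, median 0.39), with 3 passing without Gadd45a 1, Gadd45a 2, Gadd45a 4 or both arrays numbered 1, 2 or 4.

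Among 6 ligands of the receptors Ccr3, Ccr4 and Ccr8, which act on eosinophils and type 2 T cells, 1 fell and 0 rose, with a median of -0.25. The share called was 16.7%, beside 21.1% of all probe sets. All but Ccl11 were below the olfactory level by their mean over all arrays, so the median rests mostly on dim probe sets. Ccl11 (eotaxin), which draws eosinophils, read 9.80, 9.79, 9.78 and 10.04 with Gadd45a plasmid and 10.24, 10.21, 10.28 and 10.47 with control plasmid. The values were tight in both groups apart from array 4 of each, which was the highest. Ccl11 fell by 0.45 (SE 0.09, adjusted p = 0.00701). Ccl22, a ligand of Ccr4 made by dendritic cells and macrophages, was higher on all 4 Gadd45a arrays (5.52 to 5.75 with Gadd45a plasmid, 5.17 to 5.48 with control plasmid), but its change of 0.23 did not pass (adjusted p = 0.108). The others did not pass, with changes of -0.37 for Ccl24 and -0.21 for Ccl26, further eotaxins, -0.29 for Ccl17, a ligand of Ccr4, and -0.03 for Ccl1, a ligand of Ccr8.

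Values of the receptors of this class spread widely within groups. Ccr3, the eotaxin receptor of eosinophils, read 5.88, 5.04, 4.49 and 5.81 with Gadd45a plasmid and 4.92, 4.10, 3.84 and 5.19 with control plasmid. The change of 0.79 did not pass (SE 0.37, adjusted p = 0.156). Each Gadd45a array lay above the control array of the same number, and with the sample number as a block in the limma fit Ccr3 passed (adjusted p = 0.00366). Ccr4, the receptor of Ccl17 and Ccl22, read 2.76, 3.38, 2.85 and 3.68 with Gadd45a plasmid and 5.42, 3.60, 4.10 and 3.69 with control plasmid. Its change of -1.04 matched that of Cxcl11 in size but had an SE of 0.38 (adjusted p = 0.0801), and control 1 alone lay well above the rest. Both receptors were below the olfactory level. Of 6 measured eosinophil and mast cell markers, 2 fell (33.3%, beside 21.1% of all probe sets). They were the granule proteins Prg2 (-1.28, adjusted p = 0.036) and Epx (-0.33, adjusted p = 0.0259, on a probe set below the olfactory level). The list averaged 5.24 to 5.58 on the Gadd45a arrays and 5.47 to 5.77 on the control arrays. Without control 1, control 3, control 4, Gadd45a 1, Gadd45a 2, Gadd45a 4 or both arrays numbered 1 or 4, Prg2 and Epx missed the threshold, and their part in the fall of Ccl11 was not tested.

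Cxcr2, the main chemokine receptor of neutrophils, fell, and none of its 4 ligands among the 52 passed. It read 5.15, 5.17, 5.77 and 5.19 with Gadd45a plasmid and 6.10, 5.46, 6.31 and 5.95 with control plasmid. Gadd45a 3 stood above the other Gadd45a arrays and above control 2, so the groups overlapped. The change was -0.63 (SE 0.19, adjusted p = 0.046), and it was lost in 8 of the 12 fits and under 3 scalings. Without Gadd45a 3 it was -0.78 (adjusted p = 0.0188). Its ligands Cxcl1, Cxcl2 and Cxcl5 changed by -0.03, 0.03 and 0.12, and Cxcl15, a lung chemokine of mouse listed with them, by 0.01. All 4 ligands, and Cxcr2 itself, were below the olfactory level by their mean over all arrays, so a change of these ligands may not have been detectable. Cxcr1, the related receptor, changed by -0.10 (95% interval -0.70 to 0.50).

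Gadd45a 3 also stood apart in neutrophil markers. S100a8, an abundant protein of neutrophil cytoplasm, read 4.18, 6.49, 8.59 and 5.53 with Gadd45a plasmid and 8.23, 7.49, 8.61 and 8.58 with control plasmid. Gadd45a 3 alone among the Gadd45a arrays was at the control level. Of 8 measured markers, 1 fell, the granule enzyme Mpo (-0.83, adjusted p = 0.0177), and 1 rose, the receptor Csf3r (0.47, adjusted p = 0.0253). The share called was 25%, beside 21.1% of all probe sets. Without Gadd45a 3, or both arrays numbered 3, 6 were lower and 1 higher. A single marker passed without control 1, control 2, Gadd45a 2, Gadd45a 4 or both arrays numbered 2, and none without those numbered 1 or 4. The list averaged 5.33 to 6.98 on the Gadd45a arrays and 6.28 to 7.01 on the control arrays. The part of neutrophil content in the fall of Cxcr2 was not tested. Ppbp, another CXCR2 ligand, which platelets store and which the choice by symbol leaves out, fell by 0.83 (adjusted p = 0.000945).

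The other CC receptors did not pass. By their mean over all arrays Ccr7, Ccr1, Ccr9, Ccr6 and Ccr1l1 were below the olfactory level, as was the ligand Ccl20. Ccr7, which leads dendritic and T cells to lymph nodes, read 5.85, 5.77, 4.83 and 5.64 with Gadd45a plasmid and 5.31, 5.05, 5.23 and 5.32 with control plasmid. Gadd45a 3 was lowest of all 8 arrays, and without it Ccr7 was higher by 0.53 (adjusted p = 0.00661), against 0.30 (adjusted p = 0.302) with it. Ccr1, a receptor of Ccl3 and Ccl5, changed by -0.05, the gut-homing receptor Ccr9 by 0.16, Ccr6, the receptor of Ccl20, by -0.15, and Ccr10, the receptor of Ccl28, by -0.08. Ccr1l1, a relative of Ccr1, ran from 5.47 to 6.05 with Gadd45a plasmid and from 4.85 to 6.25 with control plasmid (change -0.11, SE 0.29, and -0.55, adjusted p = 0.0266, without both arrays numbered 2). The ligands Ccl20, Ccl25 and Ccl28, typical of epithelia, changed by 0.04, -0.10 and -0.31 without passing, except that Ccl28 passed without control 3 (-0.47, adjusted p = 0.0335).

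Cxcl13, which organises B cell follicles, changed by 0.19, its receptor Cxcr5 by -0.02, and the epithelial chemokines Cxcl14 and Cxcl17 by -0.11 and -0.06. Xcl1, made by T and NK cells, ran from 7.41 to 8.46 with Gadd45a plasmid and from 7.79 to 8.39 with control plasmid, a change of -0.07 (95% interval -0.57 to 0.42). Xcr1, its receptor on cross-presenting dendritic cells, changed by 0.03. None of these 6 passed.

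The atypical receptors bind chemokines without classical G protein signalling and remove or transport them. Ackr2, which degrades inflammatory CC chemokines, read 5.20, 5.23, 5.37 and 5.48 with Gadd45a plasmid and 5.46, 5.82, 5.72 and 5.73 with control plasmid. Only control 1 reached the Gadd45a range. Ackr2 fell by 0.36 (SE 0.10, adjusted p = 0.0291), which missed the threshold in 9 of the 12 fits and under 2 scalings, on a probe set below the olfactory level. The other members of this class did not pass: Ackr1, carried by red cells and venules, changed by -0.18, Ackr3 by -0.29 and Ackr4, which takes up Ccl19, Ccl21 and Ccl25, by 0.10. Blood endothelium markers, listed because venules display chemokines, fell in 8 of 10 cases (80%, beside 21.1% of all probe sets, median -0.31). They averaged 6.45 to 6.54 on the Gadd45a arrays and 6.81 to 6.85 on the control arrays. That count was 5 without control 2, Gadd45a 2, Gadd45a 3 or both arrays numbered 1, 4 without those numbered 3 or 4, and 3 without those numbered 2. The part of endothelium in the falls above was not tested.

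**Figure D3:**
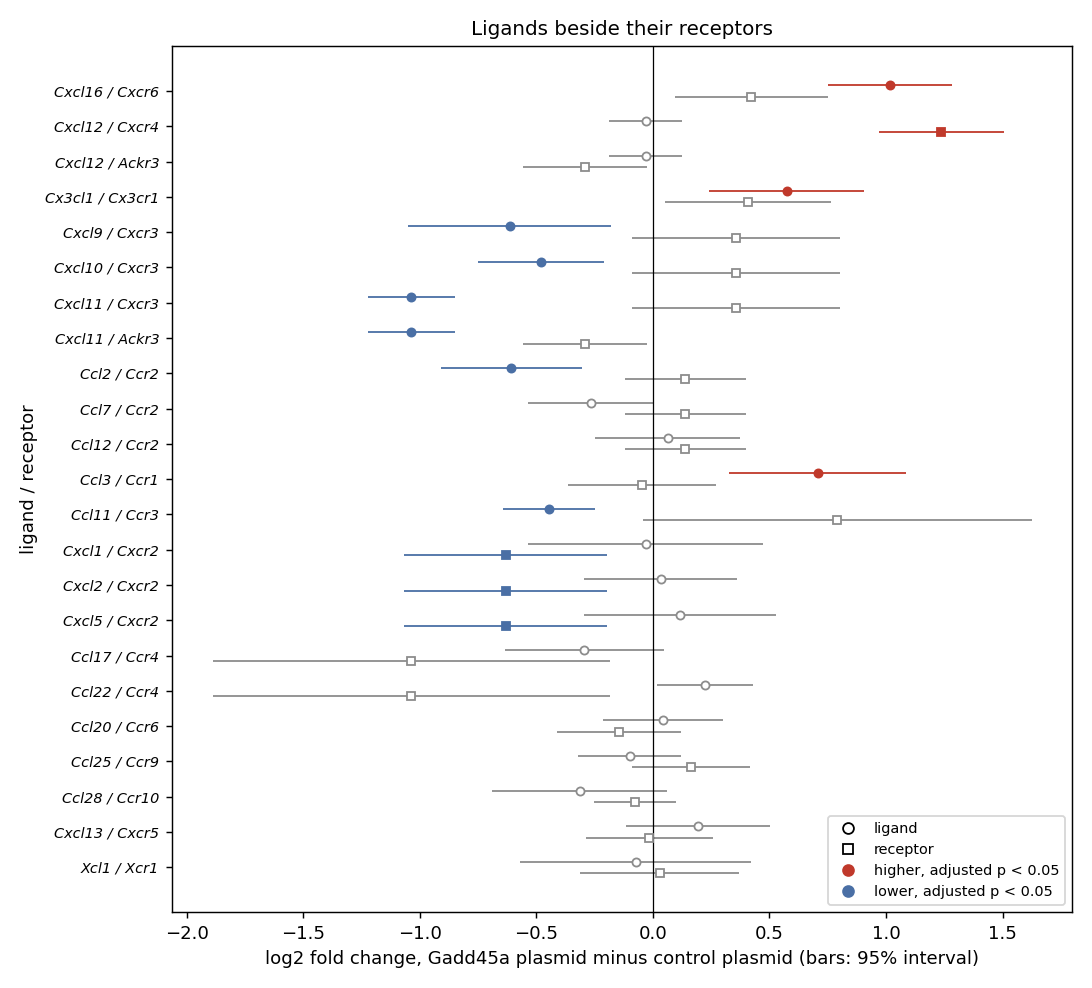
Change of a ligand (circle) and of its receptor (square) in log2 units, Gadd45a plasmid minus control plasmid, with 95% intervals, for 23 ligand and receptor pairs. Ackr2 and Ppbp are in none of these pairs. In the fit without a block, no pair had both partners past an adjusted p of 0.05. Cxcr4 rose beside a flat Cxcl12, and Cxcr2 fell beside Cxcl1, Cxcl2 and Cxcl5 near zero.

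Ligands and receptors were set side by side in 23 known pairs, which leave out Ackr2 and Ppbp. In these no pair had both partners called in the fit without a block. Ppbp (-0.83) and its receptor Cxcr2 (-0.63) were both called lower. Ackr2, which binds many CC ligands, fell (-0.36), as did its ligands Ccl2 (-0.61) and Ccl11 (-0.45), while Ccl3, another, rose (0.71). Within the 23 pairs, the signs of called ligands and their receptors agreed in Cxcl16 with Cxcr6 (1.02 and 0.42), in Cx3cl1 with Cx3cr1 (0.57 and 0.41) and in Cxcl11 with Ackr3 (-1.04 and -0.29). They were opposite in Ccl2 with Ccr2 (-0.61 and 0.14), in Ccl11 with Ccr3 (-0.45 and 0.79), in Ccl3 with Ccr1 (0.71 and -0.05) and in the CXCR3 ligands with Cxcr3 (-0.48 to -1.04 for the ligands and 0.36 for Cxcr3). Those receptor values did not pass the test. With the sample number as a block in the limma fit, Cxcr6 (adjusted p = 0.00985) and Ccr3 (adjusted p = 0.00366) did pass. Their ligands Cxcl16 (adjusted p = 0.00227) and Ccl11 (adjusted p = 0.00742) also passed, so both partners of these pairs were called in that fit.

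Genes that act below chemokine receptors were higher where they passed. Of 37 measured genes of receptor signalling and migration, 13 rose and 0 fell, with a median of 0.25. The share called was 35.1%, beside 21.1% of all probe sets (10.8% higher). They included Rgs2 (0.69, SE 0.08) and Rgs1 (0.50, SE 0.14), which shorten G protein signals, Arrb2 (0.55, SE 0.08), an arrestin that takes receptors off the surface, and the leukocyte exchange factor Vav1 (0.58, SE 0.10). The inhibitory G protein subunits Gnai2 (0.34) and Gnai3 (0.33) rose less. The count fell to 7 without both arrays numbered 1 and to 6 without those numbered 2 or 4. Over all 16755 probe sets the count fell too, from 3542 to 2170, 1876 and 2027 without those numbered 1, 2 and 4. Many of these genes are known in leukocytes. Most macrophage markers rose in the same arrays while neutrophil and T and NK cell markers moved in both directions. The part of these cells was not tested.

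Of 23 measured inducers of chemokine genes, 4 rose and 0 fell: Tgfb1 (0.60), the NF-kB subunit Rel (0.53), the cytokine Il1b (0.50) and Hif1a (0.44). This is 17.4% of the list, below the 21.1% of all probe sets that passed. The list's median change was 0.02, with 12 changes above zero and 11 below. With the sample number as a block in the limma fit, 4 passed as higher and 1 as lower. Tnf changed by -0.04 and Il6 by -0.10, and both missed the threshold. Of 11 proteases that trim or shed chemokines, 4 rose and 1 fell (45.5%). Mmp12, the macrophage elastase, rose by 2.84 (SE 0.24, adjusted p = 9.57e-05) on a probe set whose control mean, 4.89, was below the olfactory level, Mmp14 by 0.78 and cathepsin S (Ctss) by 0.58, while Mmp13 fell by 0.90 (adjusted p = 0.0426). Of 8 related genes outside the choice by symbol, 4 rose and 2 fell, 75% of the list (1 and 2 without both arrays numbered 2). Pf4, a chemokine of platelets and macrophages, rose by 0.60 (SE 0.16), Cklf by 0.51 and Cmtm7 by 0.45. Ccrl2, a receptor-like protein that presents chemerin, read 5.68, 5.56, 6.09 and 5.61 with Gadd45a plasmid and 6.66, 6.73, 6.62 and 6.63 with control plasmid, a change of -0.93 (SE 0.11, adjusted p = 0.000582).

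**Figure D4:**
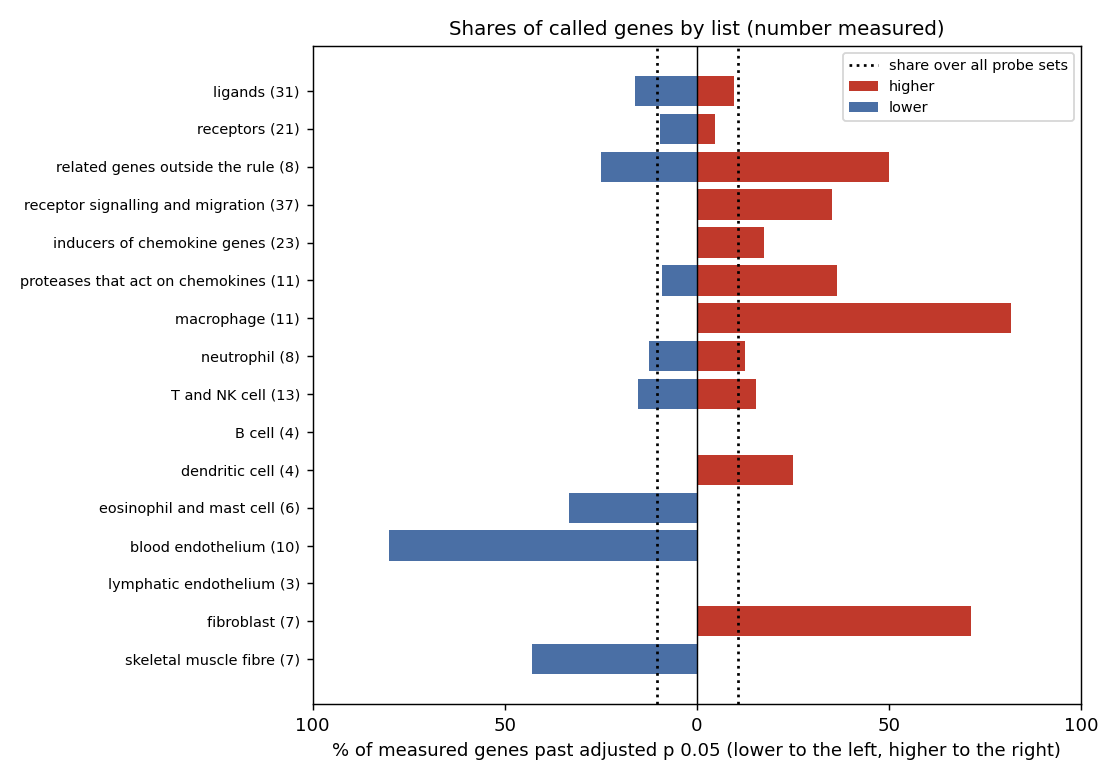
Share of measured genes past an adjusted p of 0.05, higher to the right and lower to the left, for ligands, receptors, related pathway genes and cell type markers, with the number measured in brackets. Dotted lines mark the shares over all probe sets (10.8% higher, 10.3% lower). In all 25.8% of ligands and 14.3% of receptors passed, while macrophage and fibroblast markers lie to the right and blood endothelium to the left.

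**Figure D5:**
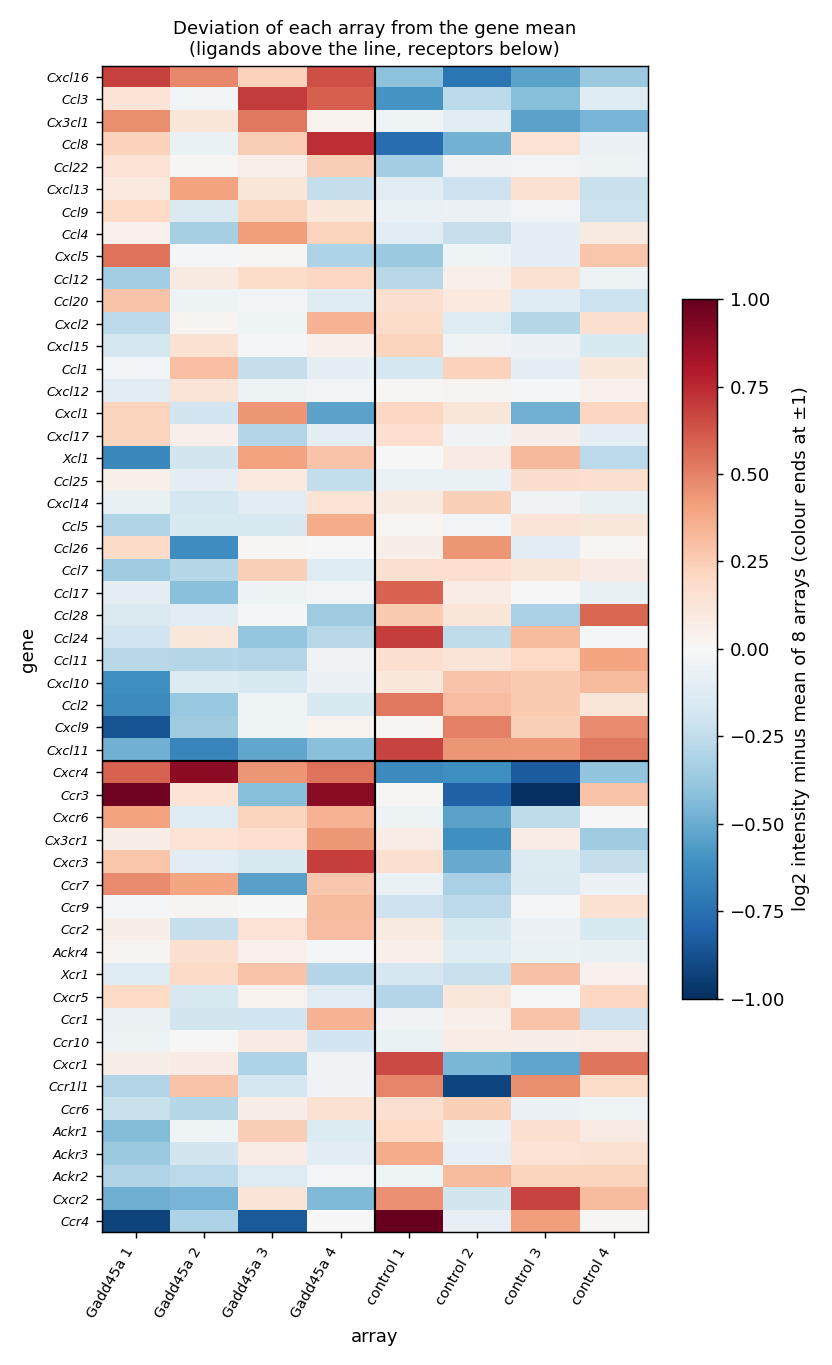
Deviation of each array from the mean of 8 arrays for each gene, in log2 units, with ligands above the horizontal line and receptors below, sorted by change. Gadd45a arrays are left of the vertical line and control arrays right of it. Cxcl16 and Cxcr4 are red on all 4 Gadd45a arrays and Cxcl11 is blue on them, while Ccr3 and Ccr4 vary widely within groups.

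The spread within groups also differed between genes. Cxcl12 had the smallest SD among control arrays (0.03) and Ccr4 the largest (0.84). Among Gadd45a arrays Ackr4 had the smallest SD (0.08) and Ccr3 the largest (0.67). Among the remaining marker lists, 0 of 4 B cell markers and 0 of 3 lymphatic endothelium markers passed (limma), with 0 and 2 at an unadjusted p of 0.05. Of 4 dendritic cell markers 1 passed (25%, beside 21.1% of all probe sets), Clec9a (0.56, adjusted p = 0.0297). It missed the threshold without control 1, control 2, control 3, Gadd45a 3, Gadd45a 4 or both arrays numbered 1, 2 or 3.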

How the data were processed

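Each array's deposited column holds the authors' processed intensities per probe set, on a log2 scale by their range (1.64 to 13.06). GCOS, RMA and build mm9 are named in the submitters' processing notes, with neither role nor version. RMA corrects background, quantile-normalizes arrays and summarises probes, which compresses changes of dim probe sets. The choice of probe sets is not stated. Total RNA was amplified to cDNA and biotin-labelled, per the labels' protocols. Groups came from the titles.

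The log2 values were not rescaled. Groups were compared with lmFit and eBayes of limma 3.58.1, run under R 4.3.3 (two-sided, no block, Benjamini-Hochberg over all 16755 probe sets, threshold 0.05). SE is the moderated standard error. Single values were also tested by exact permutation over 70 labellings. The fit was tested on simulated data. Genes were named from the array's annotation, and gene identifiers of all 52 matched RefSeq (GRCm38.p6), with 0 symbols changed. The genes, the lists of pathway genes and markers and the naming rule were chosen with earlier results of these data known. Every one of the 52 was open to naming, with up to 4 called genes named per other list, or the 2 largest changes. Irf1, Ifng, Ifnb1, Tnf, Il6, S100a8, Gnai2, Gnai3, Rgs1 and Adam10 were named after their values were seen, as were the 13 pairs of neighbours. Promoter windows end at the transcription start. Alternatives tried were a block for the sample number, renormalizations, a brightness filter, variance models, other thresholds and leaving out arrays.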

Additional observations from a re-analysis of the deposited data

Results flagged for a closer look

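Among the 104 groups of 4 arrays (52 genes in 2 groups), 6 held an array far from the other 3, where chance gives about 1 in 20. Gadd45a 4 read 10.04 for Ccl11 (others 9.78 to 9.80) and 5.54 for Ccr9 (others 5.20 to 5.25). Gadd45a 3 read 5.77 for Cxcr2 (others 5.15 to 5.19). Control 1 read 5.17 for Ccl22 (others 5.46 to 5.48) and 6.11 for Ccr10 (others 6.25 to 6.26). Control 3 read 5.26 for Cxcl1 (others 5.85 to 5.95).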

How the results depend on the processing

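The count of called genes was 11 as reported. It ran from 8 to 14 under the other scalings, filters and fits, was 4 at an adjusted p under 0.01 (3 ligands and 1 receptor) and 15 at 0.10, and ran from 5 to 11 without an array or a same-numbered pair. Called ligands ran from 4 to 8 and called receptors from 1 to 4 in those 12 fits. Called receptors numbered 1 after quantile normalization again and after cyclic loess, and 6 at an adjusted p under 0.10. The median change was 0.014 after cyclic loess and -0.073 when dim probe sets (below the median brightness) were dropped, and -0.04 to -0.01 in the 12 fits. The median of all probe sets was -0.06 as reported, -0.01 after cyclic loess and 0.02 without the dim probe sets.

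The labels do not say whether arrays with the same number come from 1 mouse. Their deviations from the group means correlated at 0.05 to 0.10, too weakly to treat them as pairs here, although every array correlated best with its own number, a hint from the data that they may be. With the number as a replicate block, 14 genes passed (9 ligands and 5 receptors, median change -0.03), adding Ccr3 (adjusted p = 0.00366), Cxcr6 (0.00985) and Ccl8 (0.0449). Of 228 values of called genes under alternatives, 49 missed the threshold and 0 turned sign. Of 837 values of the others, 15 passed. Cxcl9 and Cxcr2 missed it under all 3 renormalizations (adjusted p 0.0608 to 0.0841 for Cxcl9 and 0.0547 to 0.0785 for Cxcr2) and Ackr2 under quantile normalization again and cyclic loess (0.0905 and 0.0998). The cause was not tested. Signal near that of olfactory receptors limits 24 of the 52 genes.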
